A study of Rattus norvegicus with 72 samples.

Results

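S1 segments of the proximal tubule from sham-operated rats were compared between 72 h and 48 h after surgery. The comparison used 8 of the 72 libraries of the series, 4 at 72 h and 4 at 48 h, taken by their labelled tissue, operation and time. The rats were adult males of the outbred Sprague-Dawley strain on normal chow. The series names the left kidney for whole-kidney RNA and does not state from which side the segments were taken. The sham operation was done under general anesthesia through an abdominal incision on the right: the renal pedicle, the stalk of vessels, was dissected free and the kidney was left in place, so both groups had 2 kidneys and had gone through the same surgery. The segments were microdissected, and their RNA was amplified before sequencing. The wider study removed the right kidney in a parallel set of rats and also sequenced glomeruli and whole left kidney at 24, 48 and 72 h. The labels give no clock hour of collection, and the day after surgery cannot be told apart from the day or session in which the libraries were made. Whether the 4 libraries of 1 day stand for 4 different rats is also not stated, and the p-values below therefore cover the spread from library to library, which may be technical.

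The S1 segment is the first stretch of the proximal tubule. It takes back most of the filtered glucose, amino acids, phosphate and bicarbonate, and internalizes filtered proteins through the receptors megalin and cubilin. Its cells carry the circadian clock, in which the activators ARNTL (also called BMAL1) and CLOCK drive the Per, Cry, Rev-erb and PAR bZIP genes, whose products in turn repress or tune the activators. Adrenal glucocorticoids also reach these cells in daily and stress-linked pulses and induce genes such as Sgk1, Tsc22d3, Fkbp5 and Per1.

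The label of the segment was checked against markers. Slc34a1, the sodium-phosphate cotransporter of the early proximal tubule, had 2132 to 6479 CPM in the 8 S1 libraries and 2.96 to 42.6 CPM in the sham glomeruli of the same times, in CPM, gene counts scaled to 1e+06 per library and here without a further factor. Slc5a12, a lactate transporter of the same segment, had 482 to 1786 CPM in the 8 S1 libraries and 3.42 to 25.6 CPM in the sham glomeruli of the same times. Slc5a2, the glucose transporter SGLT2, had 8.07 to 138 CPM in the 8 S1 libraries and 1.84 to 9.21 CPM in the sham glomeruli of the same times, and its lowest S1 value, that of 72 h library 4, lay within the glomerular range. That library also had the highest mean log2 CPM of markers of the late proximal tubule (S3), 4.07, where the next highest had 3.65. Its summed CPM of these markers, 748, lay within the range of the others, 648 to 1012. Without that library edgeR's main test below also called 0 genes. Flt1, a receptor of endothelium, which glomeruli are rich in, had 8.53 to 28.9 CPM in the 8 S1 libraries and 485 to 1175 CPM in the sham glomeruli of the same times. Counts assigned to genes were 19.7 to 76.01 M at 72 h and 14.6 to 21.9 M at 48 h (M, 1e+06 counts), and the 48 h libraries thus lay at the shallow end (exact permutation test, two-sided, p = 0.0571; adjusted p = 0.686 over 24 library measures; the smallest p that 4 against 4 allows is 0.0286). Mitochondrial genes took 41.3 to 72.3% at 72 h and 55.9 to 66.6% at 48 h of gene counts. The scaling factor of the trimmed mean of M values (TMM) was 0.564 to 1.45 at 72 h and 0.909 to 1.04 at 48 h, widest at 72 h. In bulk RNA of this kind, fewer cells of a type and less RNA per cell cannot be told apart. In the tests below, the spread was estimated from 23 S1 libraries. The S1 library of sham 24 h with the number 2 was left out because its podocyte and tubule markers went against its label. Nephrectomy 72 h library 2 had 8.05% of its uniquely placed reads in genes and stayed in, with its effect given where it changes a call. Among the 72 h libraries, 3 had the lowest share of uniquely placed reads in genes (35.8%) and the highest TMM factor (1.45), and 2 had the highest share (77.4%) and the lowest factor (0.564).

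Among genes with at least 5 CPM, those with the smallest p included Ncl, Htatsf1 and Cdk11b with higher and Ctgf, Cyp24a1 and Gldc with lower levels at 72 h. None passed the threshold of an adjusted p of 0.05: edgeR's quasi-likelihood test called 0 of 18372 genes (0%) in either direction. At an unadjusted p under 0.05 it counted 1204 genes (6.55%), 723 higher at 72 h (3.94%) and 481 lower (2.62%). DESeq2 on the same 23 libraries called 201 genes, 158 higher and 43 lower. All 4 values at 72 h lay above all 4 at 48 h for 673 genes (3.66%) and below them for 582 genes (3.17%). Log2 fold changes are 72 h minus 48 h, and their median over all genes was -0.05, with a range of -0.12 to 0.08 over 19 settings of the processing. Of all 18372 genes, 9726 lay below 0 and 8645 above 0. The S1 libraries varied widely: the common biological coefficient of variation was 0.713 over the 23 libraries, 0.541 without nephrectomy 72 h library 2 and 0.420 over the 8 libraries alone. Without that library, which belongs to neither group compared, 60 of 17759 genes passed (0.338%), 45 higher (0.253%) and 15 lower (0.0845%), and with the 8 libraries alone 15 of 13011 passed (0.115%), 14 higher (0.108%) and 1 lower (0.00769%), 14 of the 15 also among the 60. The first of these settings was chosen after seeing the data.

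Ncl, which encodes nucleolin, an abundant nucleolar protein of ribosome assembly, had 156, 388, 405 and 629 CPM at 72 h, against 89.1, 79.2, 70.2 and 71.4 CPM at 48 h. All 4 libraries at 72 h lay above all 4 at 48 h, and library 1 was the lowest of the 72 h group. Its log2 fold change was 2.35 (SE 0.43, adjusted p = 0.123). The sham 24 h libraries had 126, 395 and 422 CPM, all above the 48 h values. Htatsf1, a factor tied to transcription and splicing, had 74.8, 106, 165 and 212 CPM at 72 h, against 50.5, 36.6, 34.2 and 35.3 CPM at 48 h, again without overlap, with a log2 fold change of 1.83 (SE 0.38, adjusted p = 0.161). Cdk11b, a kinase linked to splicing and transcription, had 40.999, 59.1, 131 and 168 CPM at 72 h, against 19.3, 17.8, 20.5 and 19.4 CPM at 48 h. The 48 h libraries were within a narrow band, and libraries 3 and 4 were the high ones at 72 h. Its log2 fold change was 2.37 (SE 0.51, adjusted p = 0.161). Rbm25l1, by its name related to the splicing factor RBM25, had 58.6, 87.4, 253 and 367 CPM at 72 h, against 29.96, 28.9, 18.1 and 20.8 CPM at 48 h, a log2 fold change of 2.97 (SE 0.64, adjusted p = 0.161). Dnajc2, a chaperone that sits on ribosomes, had 30.8, 45.7, 77.9 and 79.4 CPM at 72 h, against 22.3, 20.4, 19.2 and 18.5 CPM at 48 h. The groups did not overlap, and the log2 fold change was 1.54 (SE 0.33, adjusted p = 0.161). Without nephrectomy 72 h library 2, all of these 5 genes passed, with adjusted p of 0.0225 for Ncl and 0.0309 for the others.

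Ctgf, which encodes a matrix-associated growth factor that responds to YAP signalling, led the named genes of at least 5 CPM that were lower at 72 h. It had 6.99, 6.93, 2.73 and 8.03 CPM at 72 h, against 141, 12.96, 59.4 and 15.2 CPM at 48 h. The 4 libraries at 72 h lay below all of the 48 h libraries, among which 1 and 3 were far above 2 and 4. Numbers 1 and 3 were also far above 2 and 4 in sham whole kidney at 48 h (81.2, 22.5, 72.8 and 23.6 CPM). In sham glomeruli at 48 h they were higher by less (1465, 745, 1073 and 986 CPM). The log2 fold change of Ctgf in S1 was -3.21 (SE 0.65, adjusted p = 0.161). Cyp24a1, the enzyme that breaks down active vitamin D, had 6.62, 9.56, 9.68 and 40.5 CPM at 72 h, against 135, 99.99, 150.1 and 55.8 CPM at 48 h. Library 4 was the highest at 72 h and the lowest at 48 h, and the groups still did not overlap. Its log2 fold change was -2.74 (SE 0.61, adjusted p = 0.172). Gldc, the glycine decarboxylase of the mitochondrial glycine cleavage system, had 88.8, 77.5, 122 and 84.4 CPM at 72 h, against 199.9, 321, 179 and 296 CPM at 48 h, with a log2 fold change of -1.42 (SE 0.32, adjusted p = 0.199). Trpv3, a cation channel of the TRP family, had 4.35, 8.39, 3.63 and 7.30 CPM at 72 h, against 15.04, 16.4, 15.04 and 11.8 CPM at 48 h, and Dgkh, a diacylglycerol kinase, had 8.20, 7.58, 5.31 and 7.04 CPM at 72 h, against 22.4, 14.2, 22.7 and 10.2 CPM at 48 h. Both groups of values were apart for each gene. Their log2 fold changes were -1.30 (SE 0.28, adjusted p = 0.161) and -1.30 (SE 0.31, adjusted p = 0.244). Without nephrectomy 72 h library 2, a setting chosen after seeing the data, these 5 genes passed with adjusted p between 0.0309 and 0.0478. With the 8 libraries alone none of these 5 passed.

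**Figure D1:**
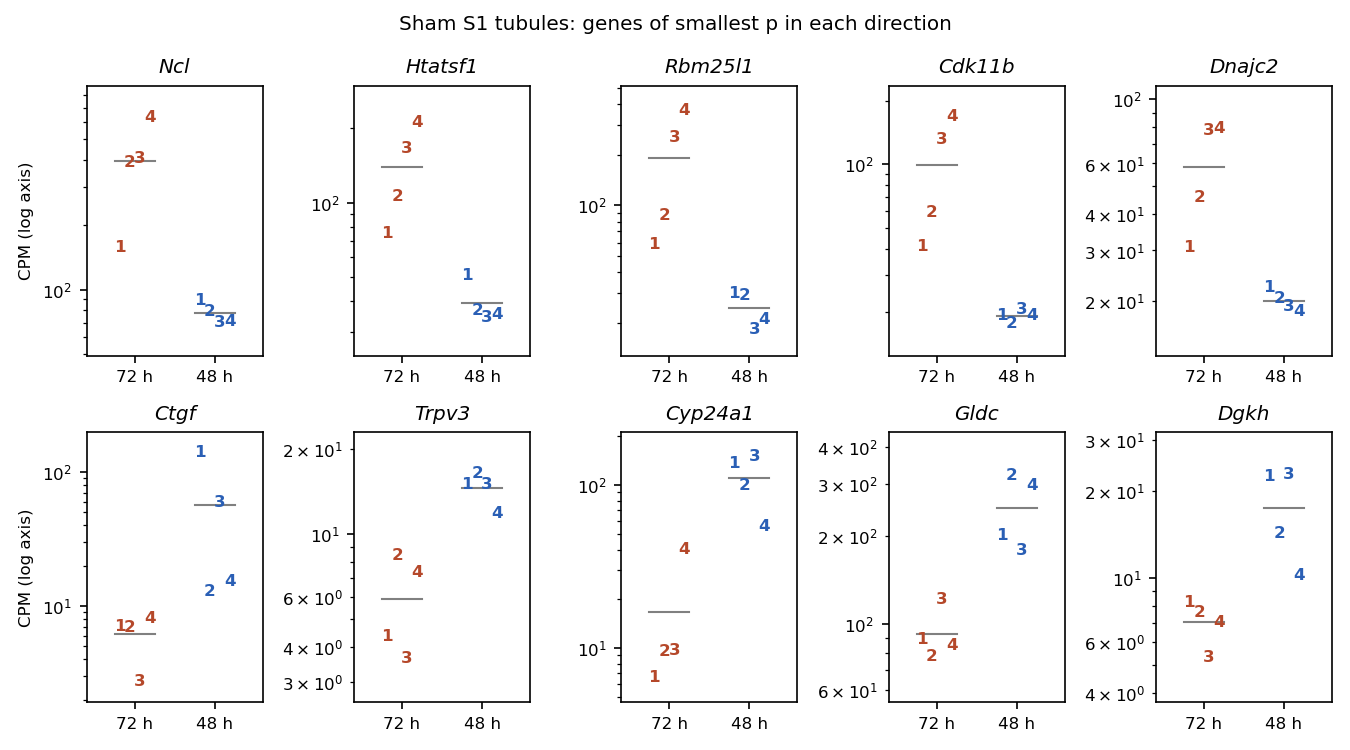
CPM of 5 genes in each direction in the sham S1 libraries at 72 h (left, red) and 48 h (right, blue), each library drawn as its number on a log axis, with a gray line at the mean. They have the smallest p among genes with at least 5 CPM and without LOC, AABR or similar symbols. For Ncl, the 72 h libraries sit at 156 to 629 CPM, above the 48 h libraries at 70.2 to 89.1 CPM, while for Ctgf the 72 h libraries sit at 2.73 to 8.03 CPM, below all 48 h libraries.

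Several transporters and enzymes of the proximal tubule were among the genes that passed in the fit without that library, and are named here after their values were seen. Slc22a12, the urate-anion exchanger URAT1, had 66.1, 119, 144 and 199 CPM at 72 h, against 24.8, 25.9, 30.8 and 32.7 CPM at 48 h. Every 72 h library was above every 48 h library, and the log2 fold change was 2.21 (SE 0.62, adjusted p = 0.330), with adjusted p of 0.0309 without the library. Csad, an enzyme of taurine synthesis, had 33.1, 57.6, 93.05 and 80.9 CPM at 72 h, against 21.5, 21.7, 21.8 and 20.3 CPM at 48 h. Alpl, an alkaline phosphatase of the brush border, had 195, 234, 587 and 418 CPM at 72 h, against 173, 111, 106 and 139 CPM at 48 h, and neither gene overlapped between days. Their log2 fold changes were 1.63 (SE 0.42, adjusted p = 0.259) and 1.44 (SE 0.48, adjusted p = 0.456). Slc39a5, a zinc transporter, had 11.3 to 32.1 CPM at 72 h and 5.89 to 9.96 CPM at 48 h, and Stra6, a receptor for retinol uptake, had 129 to 292 CPM at 72 h and 72.96 to 124 CPM at 48 h. In the other direction, Sult1a1, a sulfotransferase that conjugates phenols, had 12.01, 18.7, 7.30 and 13.1 CPM at 72 h, against 20.8, 56.9, 39.1 and 41.7 CPM at 48 h. The 4 values at 72 h lay below the 4 at 48 h, and the log2 fold change was -1.63 (SE 0.43, adjusted p = 0.306). Zhx3, a transcriptional repressor, had 37.2, 40.96, 29.1 and 20.9 CPM at 72 h, against 103, 112, 72.4 and 102 CPM at 48 h, with a log2 fold change of -1.60 (SE 0.43, adjusted p = 0.306). Without the library, the adjusted p was 0.0477 for Sult1a1 and 0.00425 for Zhx3. Zhx3 was also the 1 gene called lower with the 8 libraries alone.

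Among the clock genes, Nr1d1 and Dbp had higher and Arntl, Clock and Per2 lower mean levels at 72 h, none of them past the threshold in edgeR's main test. The list named activator arm holds 7 genes, among them the activators Arntl, Clock, Npas2 and Rora, but also the repressors Cry1 and Nfil3. Of the 7, 0 were called, against 0% of all genes. At an unadjusted p under 0.05, 2 were lower and 0 higher, where the shares over all genes were 2.62% and 3.94%. The median log2 fold change was -0.87, with 6 of 7 below 0, against -0.05 over all genes. Of the 14 Per, Cry2, Rev-erb and PAR bZIP genes, 0 were called, 2 were higher and 2 lower at an unadjusted p under 0.05, and the median was -0.39. Over 19 settings of the processing the median stayed between -1.07 and -0.47 for the activator arm and between -0.60 and -0.20 for the other list.

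The start regions of 3 of these genes are shown because they hold the letters by which clock proteins are known to bind DNA. The windows run from 250 bases before to 50 after a gene's start, come from RefSeq (build GRCr8) and are written 5′ to 3′ in lower case. Capitals mark the E-box CACGTG of ARNTL and CLOCK, TTATGTAA as bound by PAR bZIP proteins such as DBP, and TAGGTCA, the core bound by REV-ERB and ROR receptors. The 3 motifs were searched on both strands and share no overlapping match in these windows.
Nr1d1, chr10:84229405-84229704, minus strand: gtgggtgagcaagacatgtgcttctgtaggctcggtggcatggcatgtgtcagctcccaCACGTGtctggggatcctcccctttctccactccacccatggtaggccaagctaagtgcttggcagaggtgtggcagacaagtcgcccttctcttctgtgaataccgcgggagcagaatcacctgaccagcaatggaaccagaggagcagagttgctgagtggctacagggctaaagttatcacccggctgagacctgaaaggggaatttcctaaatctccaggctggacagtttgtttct
Arntl, chr1:176766078-176766377, plus strand: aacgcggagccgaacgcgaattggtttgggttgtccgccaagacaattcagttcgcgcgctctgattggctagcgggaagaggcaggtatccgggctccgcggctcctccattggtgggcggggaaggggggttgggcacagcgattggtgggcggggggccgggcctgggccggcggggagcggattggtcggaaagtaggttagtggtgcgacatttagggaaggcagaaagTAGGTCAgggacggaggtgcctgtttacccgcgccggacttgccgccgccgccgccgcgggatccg
Per2, chr9:99496944-99497243, minus strand: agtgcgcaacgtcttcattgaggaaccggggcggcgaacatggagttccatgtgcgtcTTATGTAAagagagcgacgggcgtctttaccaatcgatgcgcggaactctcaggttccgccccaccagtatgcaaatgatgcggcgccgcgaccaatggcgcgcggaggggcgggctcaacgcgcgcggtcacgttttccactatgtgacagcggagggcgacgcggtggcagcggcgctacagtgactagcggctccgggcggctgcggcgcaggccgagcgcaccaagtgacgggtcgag
Nr1d1 has a second window and Dbp has 1, and none of the 3 motifs is spelled in these. Among 33469 windows of all genes, CACGTG was in 6.42%, TTATGTAA in 0.893% and TAGGTCA in 2.63%. A match describes letters and was not tested as a binding site.

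Nr1d1, which encodes the repressor REV-ERB alpha, had 59.1, 111, 51.7 and 37.1 CPM at 72 h, against 22.3, 1.43, 26.1 and 4.45 CPM at 48 h. All 72 h libraries lay above all 48 h libraries, and at 48 h libraries 2 and 4 were far below 1 and 3. The log2 fold change was 2.26 (SE 0.65, adjusted p = 0.334), and it passed by DESeq2 (adjusted p = 0.0196) and by voom with quality weights (adjusted p = 0.0422). Nr1d1 did not pass in edgeR without nephrectomy 72 h library 2 (adjusted p = 0.0544) or with equal numbers treated as pairs (adjusted p = 0.154). By limma on log2(RPKM + 1) its adjusted p was 0.669. DESeq2 also called Ncl, Ctgf, Cyp24a1, Gldc, Sgk1 and Fkbp5 among its 201 genes. Dbp, a PAR bZIP activator of clock output genes, had 38.5, 86.9, 97.9 and 46.5 CPM at 72 h, against 29.1, 12.96, 36.1 and 12.8 CPM at 48 h. The groups did not overlap and libraries 2 and 4 were again the low ones at 48 h. The log2 fold change was 1.57 (SE 0.54, adjusted p = 0.486). Hlf, a relative of Dbp, had 15.7 to 23.8 CPM at 72 h and 8.41 to 22.6 CPM at 48 h, and Tef, another, 29.2 to 42.7 CPM at 72 h and 33.98 to 41.7 CPM at 48 h. Both overlapped between days, with log2 fold changes of 0.47 and -0.07. Per2, a core repressor whose window above holds TTATGTAA, had 39.9, 36.8, 39.04 and 51.5 CPM at 72 h, against 56.6, 81.5, 84.3 and 52.4 CPM at 48 h. Each 72 h library lay below each 48 h library, and the log2 fold change was -0.72 (SE 0.27, adjusted p = 0.569). Usp2, a deubiquitinase under clock control, had 12.05, 18.7, 12.3 and 15.9 CPM at 72 h, against 36.3, 29.1, 22.4 and 20.8 CPM at 48 h, a log2 fold change of -0.88 (SE 0.33, adjusted p = 0.567), also without overlap. Per1, the repressor that glucocorticoids induce as well, had 10.2, 13.8, 11.5 and 4.87 CPM at 72 h, against 21.7, 9.59, 36.3 and 15.5 CPM at 48 h, with a log2 fold change of -1.03 (SE 0.51, adjusted p = 0.760). Libraries 1 and 3 were the high ones for Per1 at 48 h. The other members ranged widely within days: Nr1d2, which encodes REV-ERB beta, had 27.2 to 77.6 CPM at 72 h and 33.4 to 131 CPM at 48 h, and Per3 had 9.28 to 17.5 CPM at 72 h and 10.004 to 23.3 CPM at 48 h. Cry2, a repressor, Wee1, a cell cycle kinase, and Bhlhe40, a repressor, had log2 fold changes of 0.26, -0.39 and -0.38. Ciart and Bhlhe41, both repressors, were at low levels, with at most 8.51 CPM and 0.780 CPM in the 8 libraries and log2 fold changes of -0.71 and -1.20.

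Arntl, the activator whose window above holds TAGGTCA, had 3.77, 2.31, 1.33 and 1.25 CPM at 72 h, against 2.64, 13.2, 1.92 and 11.1 CPM at 48 h. At 48 h libraries 2 and 4 stood above all 6 others, while 1 and 3 lay among the 72 h values, so the groups overlapped. The log2 fold change was -1.72 (SE 0.65, adjusted p = 0.569). Clock, its partner, had 141, 139.8, 61.6 and 99.3 CPM at 72 h, against 236, 263, 165 and 166 CPM at 48 h, with no overlap and a log2 fold change of -0.91 (SE 0.35, adjusted p = 0.569). Npas2, which can stand in for Clock, had 4.55 to 8.43 CPM at 72 h and 3.05 to 5.71 CPM at 48 h and a log2 fold change of 0.42. Cry1, a late repressor, had 4.37, 2.10, 5.11 and 7.90 CPM at 72 h, against 2.76, 11.6, 4.61 and 13.4 CPM at 48 h, and Nfil3, a repressor of PAR bZIP target genes, had 2.36, 0.286, 1.15 and 4.34 CPM at 72 h, against 0.737, 7.04, 2.48 and 4.45 CPM at 48 h. Library 2 or 4 was the highest at 48 h for both. Their log2 fold changes were -0.75 and -0.87. The nuclear receptor Rora, which activates Arntl, had 13.5 to 38.3 CPM at 72 h and 21.3 to 45.7 CPM at 48 h, with overlap and a log2 fold change of -0.44.

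**Figure D2:**
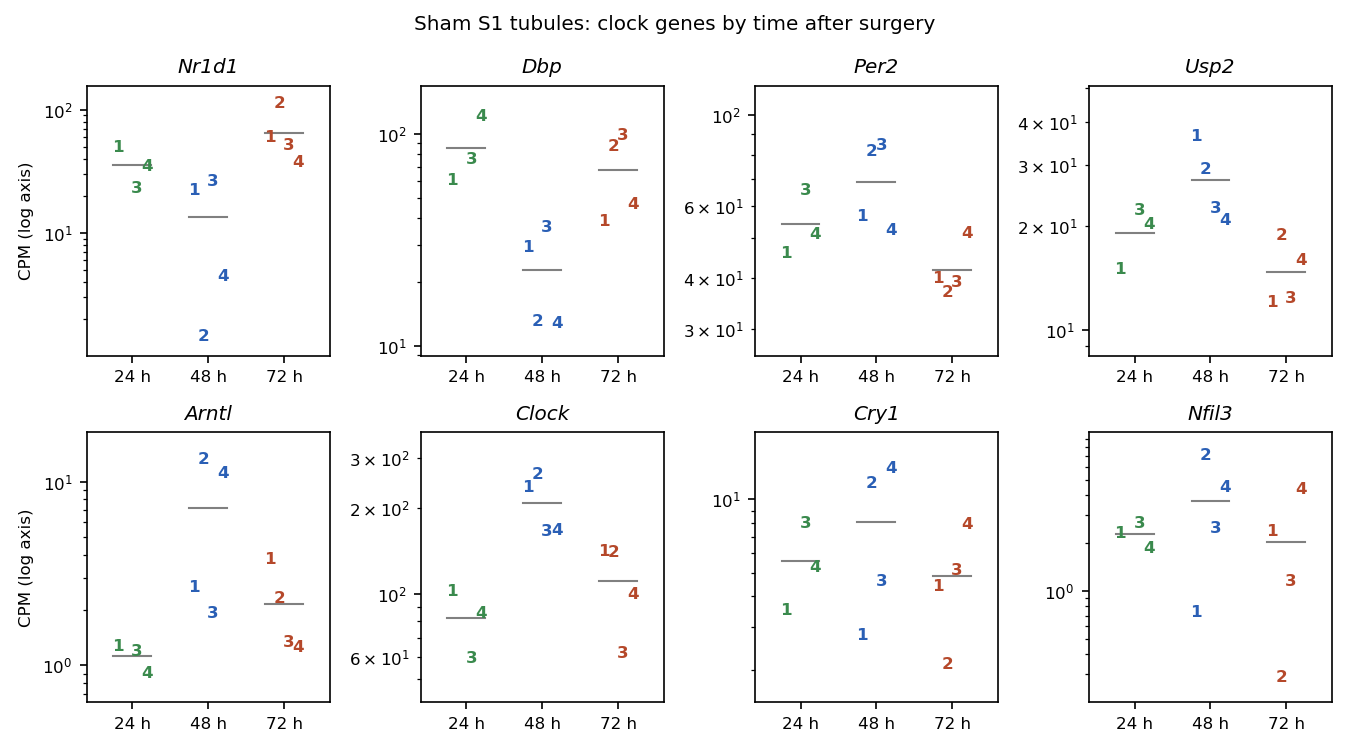
CPM of 8 clock genes in sham S1 libraries at 24, 48 and 72 h after surgery, each library drawn as its number on a log axis, with a gray line at the mean. Libraries 2 and 4 at 48 h are the lowest for Nr1d1 (1.43 and 4.45 CPM) and the highest for Arntl (13.2 and 11.1 CPM).

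The split among the 48 h libraries was seen under the same numbers in the other tissues of sham rats. In sham glomeruli, Nr1d1 had 144, 93.4, 115 and 119.9 CPM at 72 h, against 105, 7.35, 113 and 9.20 CPM at 48 h in the order of libraries 1 to 4. In sham whole kidney, made with another kit, it had 36.5, 33.3, 30.5 and 17.04 CPM at 72 h, against 20.5, 1.94, 22.95 and 3.14 CPM at 48 h. Libraries 2 and 4 of 48 h were thus low in all 3 tissues. Arntl ran the other way, with 5.52, 6.02, 3.10 and 7.16 CPM at 72 h, against 7.26, 29.4, 5.86 and 20.5 CPM at 48 h in glomeruli. In whole kidney it had 15.04, 7.31, 6.81 and 8.44 CPM at 72 h, against 7.82, 18.3, 7.62 and 23.4 CPM at 48 h. The 2 libraries low in Nr1d1 were the 2 high in Arntl in each tissue. Dbp had 56.96, 8.09, 66.3 and 9.15 CPM in the 48 h glomeruli and 46.7, 21.5, 58.8 and 22.1 CPM in the 48 h whole kidneys, with 2 and 4 the lowest. The labels do not say whether libraries of a number share a rat. These libraries were picked out after their values were seen, so no test was made between them, and the 48 h means average over both patterns.

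**Figure D3:**
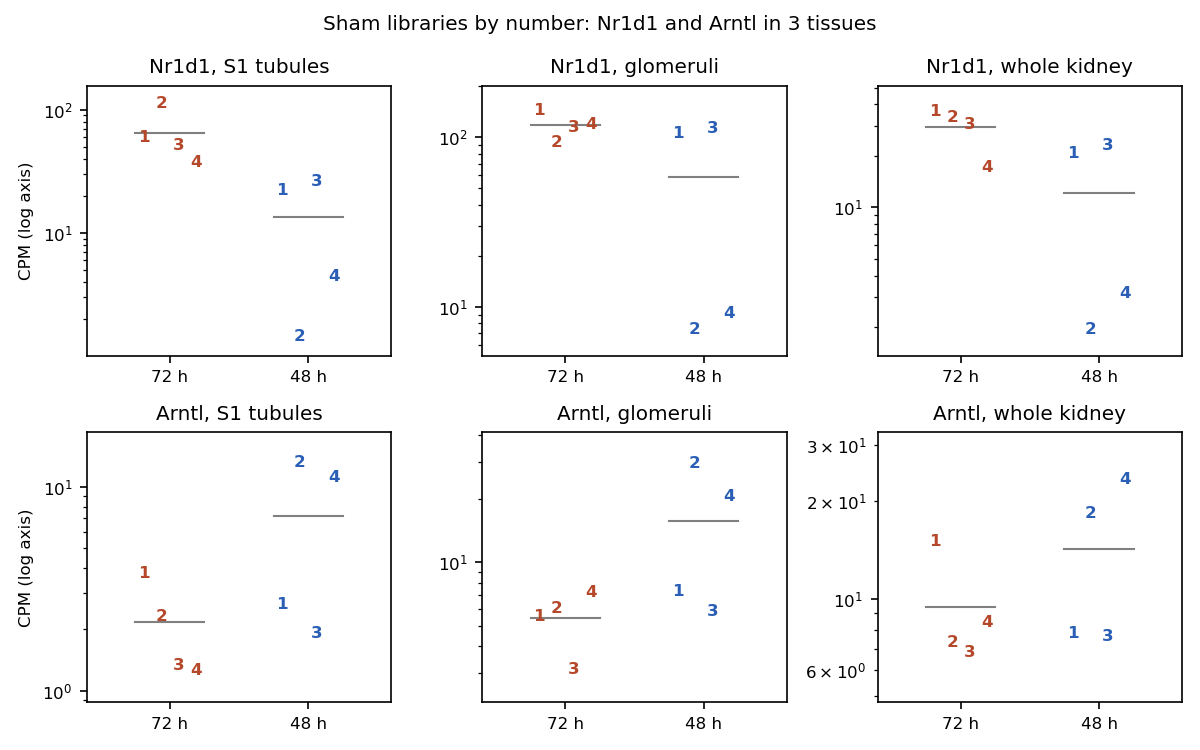
CPM of Nr1d1 (top) and Arntl (bottom) in sham S1 tubules, glomeruli and whole kidney at 72 h (left, red) and 48 h (right, blue), each library drawn as its number on a log axis, with a gray line at the mean. At 48 h, numbers 2 and 4 are the lowest for Nr1d1 and the highest for Arntl in each of the 3 tissues.

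Among 20 transporters, enzymes and regulators listed as following the clock in kidney or liver, 0 were called (0% of all genes), and the median log2 fold change was -0.20. At an unadjusted p under 0.05, 1 was higher (Cyp4a1) and 3 were lower (Sgk1, Tsc22d3 and Cdkn1a), where the shares over all genes were 3.94% and 2.62%. Sgk1 and Tsc22d3 are also counted in the glucocorticoid list below. Cyp4a1, a fatty acid hydroxylase, had 348, 775, 569.5 and 575 CPM at 72 h, against 394, 438, 146 and 261 CPM at 48 h. The ranges overlapped and the log2 fold change was 0.87 (SE 0.34, adjusted p = 0.604). Slc9a3, the sodium-proton exchanger NHE3 of the brush border and a known clock output, had 84.5, 85.4, 53.7 and 86.5 CPM at 72 h, against 82.5, 113, 96.2 and 124 CPM at 48 h. The groups overlapped, and its log2 fold change was -0.42 (SE 0.26, adjusted p = 0.865). Slc6a6, the taurine transporter, had 14.2 to 42.5 CPM at 72 h and 36.05 to 71.3 CPM at 48 h, and Slc22a8, the organic anion transporter OAT3, had 435 to 1328 CPM at 72 h and 462 to 822 CPM at 48 h. Neither was separated by day, with log2 fold changes of -0.58 and 0.33. Ddc, which makes dopamine in the proximal tubule, had 154 to 186 CPM at 72 h and 129 to 178 CPM at 48 h, a log2 fold change of 0.20. Nampt and Alas1, which set the pace of NAD and heme synthesis, had log2 fold changes of -0.66 and 0.30, and Por, the reductase that serves cytochrome P450 enzymes, of 0.0125, with a sign that turned in some settings. Ppara and Ppargc1a, regulators of fat and energy use, had -0.41 and 0.13 on the same scale. The transferrin receptor Tfrc had -0.57. The cell cycle inhibitor Cdkn1a had 4.20, 0.977, 2.04 and 3.16 CPM at 72 h, against 3.68, 5.17, 8.58 and 5.02 CPM at 48 h, a log2 fold change of -1.11. Pdk4, Upp2, Scnn1a and Slc6a9 were at most 14.6 CPM in any of the 8 libraries, with log2 fold changes of 0.38, -0.44, 1.32 and 1.12.

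Genes induced by glucocorticoids had a median log2 fold change of -0.86 over 17 measured members, against -0.05 over all genes. Of the 17, 0 were called and 13 lay below 0, and 5 were lower and 0 higher at an unadjusted p under 0.05 (Sgk1, Fkbp5, Zbtb16, Tsc22d3 and the ErbB inhibitor Errfi1 at -1.19), where 2.62% of all genes were lower. Over 19 settings the median stayed between -1.03 and -0.47. Sgk1, a kinase that raises sodium transport, had 164, 90.2, 170.1 and 144 CPM at 72 h, against 829, 372, 432 and 307 CPM at 48 h. The groups did not overlap, library 1 was highest at 48 h, and the log2 fold change was -1.77 (SE 0.47, adjusted p = 0.306). Fkbp5, a co-chaperone of the glucocorticoid receptor, had 28.2, 18.97, 13.1 and 19.9 CPM at 72 h, against 56.4, 35.01, 69.4 and 47.3 CPM at 48 h, also apart, with a log2 fold change of -1.38 (SE 0.41, adjusted p = 0.355). Tsc22d3, the anti-inflammatory leucine zipper GILZ, had 10.8, 7.34, 21.5 and 15.9 CPM at 72 h, against 29.3, 30.9, 20.8 and 31.6 CPM at 48 h. Library 3 at 72 h lay above library 3 at 48 h, and the log2 fold change was -1.02 (SE 0.45, adjusted p = 0.706). Zbtb16, a transcription factor strongly induced by the receptor, had 0.136, 0, 0.179 and 0 CPM at 72 h, against 4.73, 1.12, 4.89 and 1.28 CPM at 48 h. At 72 h it was at or near 0, and at 48 h libraries 1 and 3 were the high ones. Its log2 fold change of -5.07 (SE 1.02, adjusted p = 0.161) rests on few counts, and on log2(RPKM + 1), where values near 0 weigh less, it was -0.94. In the fit without nephrectomy 72 h library 2, Sgk1 (adjusted p = 0.0309) and Zbtb16 (adjusted p = 0.0225) passed. The sham 24 h libraries had 84.9, 274 and 189 CPM of Sgk1 and 23.7, 15.8 and 20.7 CPM of Fkbp5, below all 48 h values.

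Nephrectomy S1 tubules at the same times, which share no library with the sham comparison, showed the reverse for Sgk1, with 878, 179.6, 1375 and 1641 CPM at 72 h, against 119, 117, 199 and 199.7 CPM at 48 h. Library 2 at 72 h, the one with few reads in genes, was within the 48 h range and the other 3 were far above it. In edgeR's test of nephrectomy alone Sgk1 rose, with a log2 fold change of 2.68 (SE 0.49, adjusted p = 0.0375), a call lost without nephrectomy 48 h library 1 or 2, where 0 genes passed. The sham change minus the nephrectomy change was -4.45 (SE 0.68, adjusted p = 0.0131) for Sgk1, the 1 gene of 18372 called for that difference (0.00544%). This call is at the edge: it was kept in 7 of 16 fits that each left out 1 library. The adjusted p was 0.0839, 0.0599 and 0.0652 without sham 72 h library 1, 2 or 4 and 0.0517 without sham 48 h library 1. It was 0.0510 without nephrectomy 72 h library 4, and 0.169, 0.157, 0.0869 and 0.0889 without nephrectomy 48 h library 1, 2, 3 or 4. Without nephrectomy 72 h library 2, 5 of 17759 genes were called (0.0282%): Sgk1, Plk3, Zbtb16, Sh3rf1 and Per1, all with a lower change in sham and named because they passed. Plk3, a stress kinase, had 5.81, 3.12, 4.57 and 4.01 CPM at 72 h, against 16.7, 5.73, 14.3 and 13.1 CPM at 48 h in sham. In nephrectomy it had 12.9, 4.04, 14.4 and 17.8 CPM at 72 h, against 4.46, 4.46, 2.55 and 6.42 CPM at 48 h. Sh3rf1, a scaffold and ubiquitin ligase of the JNK pathway, had 11.8 to 23.4 CPM at 72 h and 25.7 to 42.4 CPM at 48 h in sham, and Per1 had 21.1, 2.15, 25.3 and 28.8 CPM at 72 h, against 3.67, 4.12, 5.32 and 6.22 CPM at 48 h in nephrectomy. Without that library the adjusted p of the difference was 4.68e-04 for Plk3, 0.00237 for Zbtb16 and 0.00322 for Per1 and Sh3rf1.

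**Figure D4:**
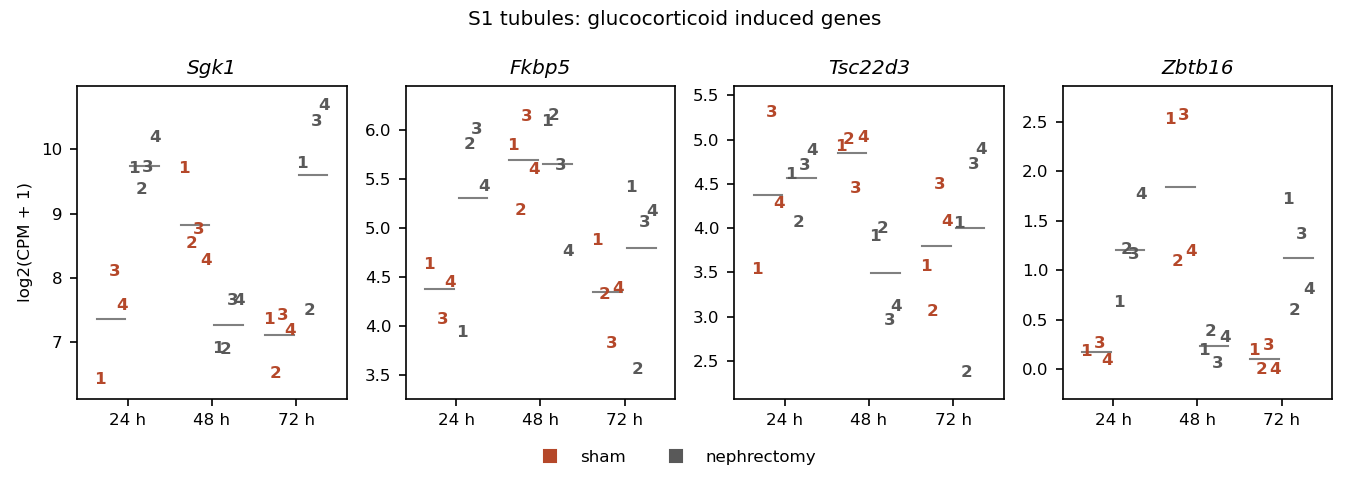
Log2(CPM + 1) of 4 glucocorticoid induced genes in S1 tubules at 24, 48 and 72 h, sham in red and nephrectomy in gray, each library drawn as its number, with a gray line at the mean of the plotted values. Sgk1 in sham peaks at 48 h (307 to 829 CPM, against 90.2 to 170.1 CPM at 72 h). In nephrectomy the 48 h libraries lie below those of 72 h, except for library 2 of 72 h, which is within the 48 h range.

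In sham whole kidney, a separate set of libraries set beside S1 without a test between them, 4 of 15678 genes fell at 72 h (0.0255%) and 0 rose. These were Tsc22d3, Sgk1, Zbtb16 and Fmo2, a flavin monooxygenase. Sgk1 had 71.99, 44.7, 47.3 and 60.7 CPM at 72 h, against 229, 148, 179 and 182 CPM at 48 h, and Tsc22d3 had 30.997, 26.9, 33.2 and 35.6 CPM at 72 h, against 120.4, 111, 129 and 116 CPM at 48 h. No value at 72 h reached the 48 h range for either. Their log2 fold changes were -1.72 (SE 0.21, adjusted p = 2.70e-04) and -1.91 (SE 0.21, adjusted p = 1.09e-04), and those of Zbtb16 and Fmo2 were -3.23 (SE 0.58, adjusted p = 0.0461) and -1.32 (SE 0.20, adjusted p = 0.00741). In S1, Fmo2 had 15.8, 40.1, 16.8 and 22.6 CPM at 72 h, against 110.4, 50.03, 20.5 and 24.7 CPM at 48 h, with overlap and a log2 fold change of -1.11 (SE 0.56, adjusted p = 0.772). Without whole kidney library 1 or library 2 of 72 h, 2 genes were called in whole kidney. In sham glomeruli edgeR called 0 of 24488 genes (0%), with 2400 at an unadjusted p under 0.05 (9.8%) and 177 called by DESeq2, and 26 passed without sham 48 h glomeruli library 3. The S1 change minus the glomerular change called 0 genes (0%) by edgeR, with 884 at an unadjusted p under 0.05 (3.61%) and 2 called by DESeq2. It called 1 gene without 72 h library 4 of either tissue. This test took S1 and glomerular libraries of equal number as independent. The labels do not say whether they share a rat, and its p-values do not allow for that. Ncl had log2 fold changes of 1.54 in nephrectomy S1 (adjusted p = 0.0420, and 0.0693 without nephrectomy 72 h library 2), 1.11 in sham glomeruli (adjusted p = 0.499) and -0.53 in sham whole kidney (adjusted p = 0.881). In nephrectomy S1, where 1108 of 18372 genes were called (6.03%), Cyp24a1 and Gldc fell, with log2 fold changes of -2.46 (SE 0.61, adjusted p = 0.0378) and -2.01 (SE 0.33, adjusted p = 0.0375). Without nephrectomy 72 h library 2 the call of Cyp24a1 was lost (adjusted p = 0.0711) and Gldc still passed (adjusted p = 0.00531). That count was 0, 0, 3 and 5 without nephrectomy 48 h library 1, 2, 3 or 4, and 4493, 93 (0.524%), 2621 and 1324 without nephrectomy 72 h library 1, 2, 3 or 4, so every nephrectomy call named here was lost without 48 h library 1 or 2.

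Transporters that define the segment had no call in edgeR's main test, and neither had any other gene. Of 16 glucose, phosphate and sulfate transporters, 20 amino acid and peptide transporters, 19 organic anion and cation transporters and 15 sodium, bicarbonate, water and pump genes, 0 were called in any list, against 0 of all 18372 genes (0%). Their median log2 fold changes were -0.06, -0.0421, 0.0923 and -0.0154. In the organic anion and cation list, 1 member passed without nephrectomy 72 h library 2, and 1 with the 8 libraries alone. Slc34a1 had 3694, 3781, 4488 and 3403 CPM at 72 h, against 2432, 2316, 2643 and 2720.1 CPM at 48 h. After TMM scaling each 72 h library was above each 48 h library. The mean was 3841 ± 460.3 CPM at 72 h and 2528 ± 186 CPM at 48 h (SD, n = 4 each). Without the TMM factors, which were 0.564 to 1.45 at 72 h, libraries of both days had 2132 to 6479 CPM and the days overlapped. The log2 fold change of Slc34a1, 0.60 (SE 0.34, adjusted p = 0.812), did not pass. Slc5a2 had 112, 74.2, 95.3 and 10.5 CPM at 72 h, against 88.1, 125, 141 and 106 CPM at 48 h. Library 4 of 72 h was far below all others, and the log2 fold change was -0.65 (SE 0.56, adjusted p = 0.952). Slc22a6, the organic anion transporter OAT1, had 516, 631, 631 and 439.8 CPM at 72 h, against 339, 351, 239 and 358 CPM at 48 h. These TMM-scaled values did not overlap, but without the TMM factors the days overlapped for this gene too. The days also overlapped without these factors for Per2, Rab11a, Alpl, Mdh1, Ebp and Atf4, whose scaled values are given here as apart. Slc4a4, the basolateral bicarbonate cotransporter, had 2088 to 4068 CPM at 72 h and 1898 to 2251 CPM at 48 h. Their log2 fold changes were 0.79 (SE 0.41, adjusted p = 0.783) and 0.63 (SE 0.27, adjusted p = 0.706). Slc6a13, which carries GABA and taurine, had 27.8 to 63.6 CPM at 72 h and 20.2 to 28.9 CPM at 48 h, a log2 fold change of 0.84, and Slc22a2, the cation transporter OCT2, 109.8 to 169 CPM at 72 h and 49.4 to 114 CPM at 48 h, a log2 fold change of 0.66. Slc5a12 ran the other way, with 424 to 1414 CPM at 72 h and 1000.4 to 1811 CPM at 48 h and a log2 fold change of -0.73.

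The endocytic receptors were at lower mean levels at 72 h without passing. Lrp2, which encodes megalin, had 2696, 4284, 2081 and 3622 CPM at 72 h, against 6749, 6055, 3099.8 and 4764 CPM at 48 h, and Cubn, which encodes cubilin, had 1196, 2001, 892 and 1447 CPM at 72 h, against 2238, 2557, 1588 and 2032 CPM at 48 h. In both genes the ranges of the days overlapped, and the log2 fold changes were -0.70 (SE 0.38, adjusted p = 0.795) and -0.60 (SE 0.36, adjusted p = 0.844). Dab2, the adaptor of megalin, had 942, 1818, 1817 and 997 CPM at 72 h, against 1082, 894, 680.4 and 622 CPM at 48 h, higher at 72 h in mean but with overlap, and with a log2 fold change of 0.77 (SE 0.35, adjusted p = 0.736). Rab11a, a small GTPase of recycling vesicles, had 31.7, 26.4, 24.1 and 20.9 CPM at 72 h, against 45.2, 51.3, 35.1 and 43.1 CPM at 48 h, lower in each 72 h library than in each 48 h library, with -0.76 (SE 0.28, adjusted p = 0.542). Of the 13 genes of this list 0 were called, and the median was -0.19.

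Of 16 gluconeogenesis, fructose and ammonia genes 0 were called, with a median log2 fold change of -0.0852. Pck1, the rate-setting enzyme of gluconeogenesis, had 2555, 4858, 5173 and 3330.2 CPM at 72 h, against 3003, 5619, 2203 and 3392 CPM at 48 h, with full overlap and a log2 fold change of 0.16. G6pc, which releases free glucose, had 211 to 492 CPM at 72 h and 278 to 786 CPM at 48 h and a log2 fold change of -0.77. Mdh1, the cytosolic malate dehydrogenase, had 747, 786, 1409 and 2507 CPM at 72 h, against 549, 570.2, 504 and 713 CPM at 48 h. Library 4 was the highest at 72 h, no 48 h library reached the 72 h range, and the log2 fold change was 1.22 (SE 0.34, adjusted p = 0.306). Slc16a1, the lactate and pyruvate carrier MCT1, had 61.6, 30.6, 46.04 and 20.01 CPM at 72 h, against 71.5, 141, 60.7 and 92.6 CPM at 48 h, a log2 fold change of -1.21 (SE 0.52, adjusted p = 0.690), with overlap through library 1 of 72 h. The 29 fatty acid oxidation and PPAR genes had a median of 0.0367, the 16 glycolysis enzymes -0.0483, the 25 cholesterol synthesis genes -0.12 and the 35 nuclear respiratory chain genes -0.25, with 0 called in each. Of the respiratory chain genes 28 of 35 lay below 0, where 9726 of all 18372 genes did. The median of the respiratory chain genes was -0.049 without library 2 of 72 h and -0.088 without library 4 of 48 h. Ebp, an isomerase of cholesterol synthesis, had 12.8, 15.04, 51.7 and 57.2 CPM at 72 h, against 5.52, 7.66, 8.87 and 12.4 CPM at 48 h, a log2 fold change of 1.98 (SE 0.57, adjusted p = 0.334). Its 72 h values lay above the 48 h values, highest in libraries 3 and 4.

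Of 10 vitamin D and phosphate hormone genes 0 were called, and the median was 0.0270. Beside Cyp24a1, Cyp27b1, which makes active vitamin D, had 5.68, 6.79, 5.23 and 5.46 CPM at 72 h, against 2.64, 2.55, 3.40 and 3.39 CPM at 48 h. Its values at 72 h were above those at 48 h at low CPM, and the log2 fold change was 0.95 (SE 0.62, adjusted p = 0.893). Immediate early genes, which respond to handling and stress within minutes, had a median of 0.57 over 26 members, 0 called and 19 above 0, with a range of the median over settings of 0.05 to 1.14. Jund, a transcription factor of the AP-1 family, had 28.3, 14.03, 105 and 59.8 CPM at 72 h, against 5.09, 6.17, 9.86 and 14.2 CPM at 48 h. Library 2 of 72 h lay just below library 4 of 48 h, and the log2 fold change was 2.55 (SE 0.73, adjusted p = 0.330). Among 10 heat shock genes with a median of -0.0359, 0 were called. Dnaja1, a co-chaperone of HSP70, had 314, 678, 900.5 and 815 CPM at 72 h, against 269.9, 299, 207 and 228 CPM at 48 h, without overlap and with 1.43 (SE 0.39, adjusted p = 0.306) as its log2 fold change. Of 15 ATF4 and serine synthesis genes 0 were called, with a median of 0.35. Atf4, the stress-response activator itself, had 63.96, 72.3, 67.2 and 120.3 CPM at 72 h, against 31.6, 41.7, 51.1 and 53.9 CPM at 48 h, each 72 h value above each 48 h value, and a log2 fold change of 0.86 (SE 0.30, adjusted p = 0.486). The medians of the 18 interferon response genes and 31 replication and mitosis genes were -0.41 and -0.0952, with 0 called. The 17 ER chaperone genes had a median of 0.20, the 22 glutathione and NRF2 targets 0.0319, the 18 cytochrome P450 and conjugating enzymes 0.10 and the 21 tubular injury markers 0.0105, again with 0 called. Havcr1 (KIM-1) and Lcn2, both tubular injury markers, were at most 1.38 and 1.63 CPM in any of the 8 libraries.

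Markers of other cells were present at low levels on both days. The summed level of 11 endothelial markers was 64.8 to 142 CPM at 72 h and 113 to 162 CPM at 48 h, with the 72 h sums lower in mean (exact permutation test, two-sided, p = 0.0571; adjusted p = 0.686). Flt1, a VEGF receptor of endothelium, had 11.6, 16.97, 6.79 and 11.1 CPM at 72 h, against 31.6, 29.2, 28.5 and 17.8 CPM at 48 h, and Tek, the angiopoietin receptor, had 8.25, 15.01, 2.53 and 4.94 CPM at 72 h, against 20.9, 25.9, 21.9 and 10.6 CPM at 48 h. Flt1 did not overlap between days, and the log2 fold changes were -1.21 (SE 0.41, adjusted p = 0.470) and -1.36 (SE 0.54, adjusted p = 0.611). The median over the endothelial list was -0.59, with 0 of 11 called and 2 lower at an unadjusted p under 0.05, where 2.62% of all genes were lower. This median lay below 0, as did those of the glucocorticoid and clock activator lists, and its part in those results was not tested. The 12 podocyte markers summed to 34.8 to 64.5 CPM at 72 h and 38.1 to 55.1 CPM at 48 h, and the 9 measured S3 markers of the late proximal tubule to 665 to 1001 CPM at 72 h and 648 to 1012 CPM at 48 h. The 12 mesangial and smooth muscle markers summed to 13.5 to 80.9 CPM at 72 h and 9.84 to 45.3 CPM at 48 h, highest in library 1 of 72 h, whose Acta2 (smooth muscle actin) and Myh11 (smooth muscle myosin) had 12.3 and 25.2 CPM. Without that library the log2 fold changes of both were below 0. Slc12a3, the cotransporter of the distal convoluted tubule, had 88.01, 2.74, 2.30 and 5.92 CPM at 72 h, against 3.01, 17.4, 9.65 and 7.98 CPM at 48 h, with library 1 of 72 h far above the others. Of the other marker lists, the medians were 0.34 for 15 S1 markers, 0.0196 for 10 collecting duct markers, 0.47 for 11 loop and distal tubule markers, 0.11 for 14 immune cell markers and -0.50 for 5 red blood cell markers, with 0 called in each. Without library 1 of 72 h, the loop and distal tubule median was -0.20 and the collecting duct median -0.42. Hbb-b1 of red blood cells was the 1 listed marker with no count in any of the 8 libraries.

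**Figure D5:**
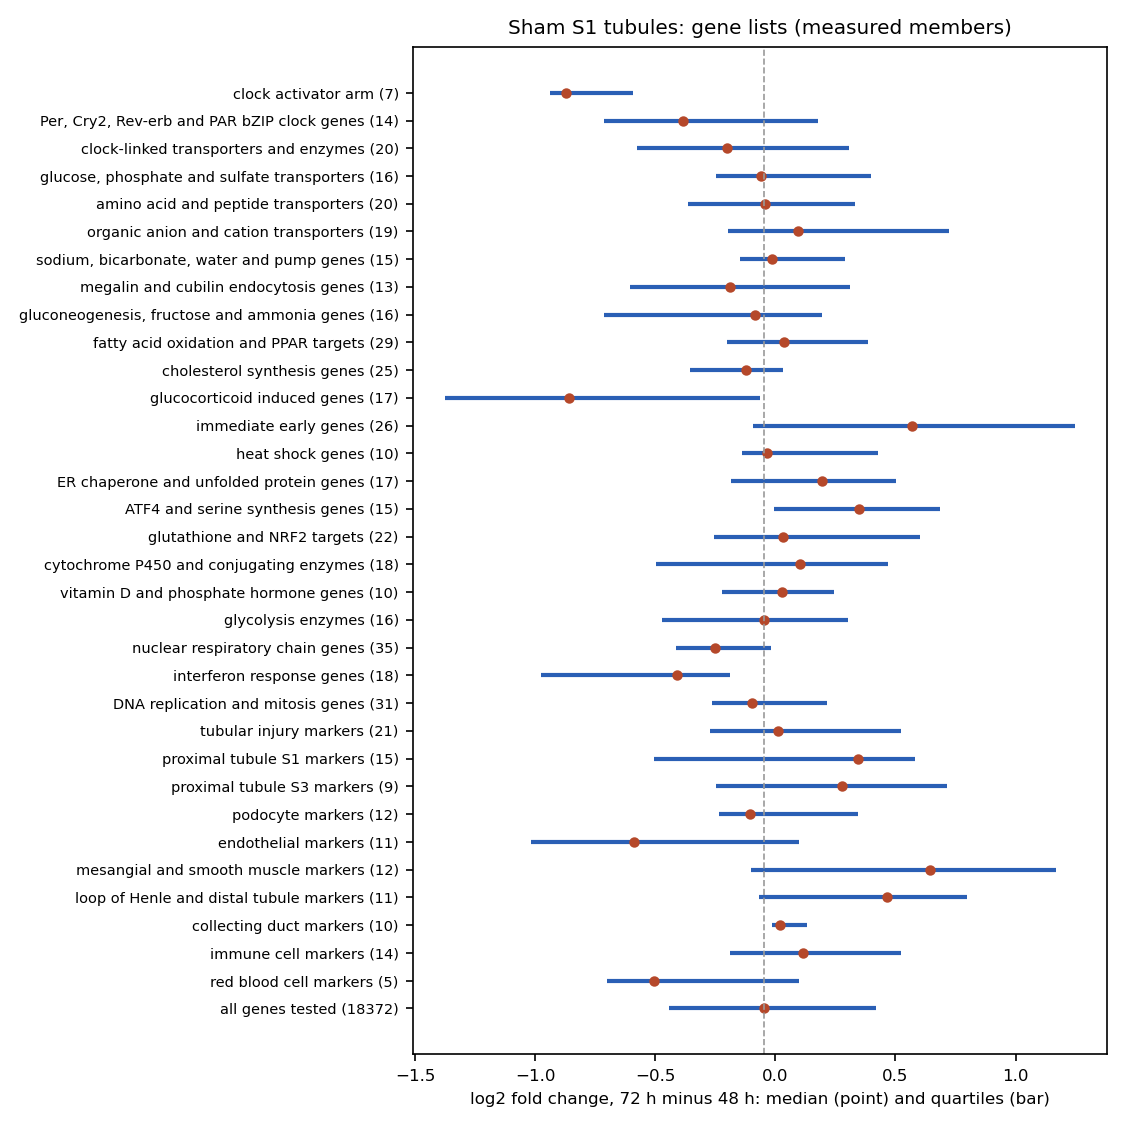
Median (point) and quartiles (bar) of the log2 fold change, 72 h minus 48 h, over the measured members of 33 gene lists and of all genes tested in sham S1 tubules, with the number of members in brackets and a dashed line at the median of all genes. The clock activator arm list, which includes the repressors Cry1 and Nfil3, has the lowest median (-0.87), next to the glucocorticoid induced genes (-0.86). The transporter lists lie near the dashed line.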

How the data were processed

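Per the labels' protocols, RNA of the dissected tubules was isolated with the Zymo Quick-RNA kit and amplified to cDNA with the NuGEN Ovation V2 system, and 1 end of each fragment was read. The submitters' processing notes name Trimmomatic 0.32, STAR 2.4.0.1 and, without versions, SAMtools and HTSeq. Genome build, annotation and strand setting: not given in the sources used here. Overlapping, antisense and near-identical genes are therefore uncertain. The authors deposited whole-number read counts per gene, the input of every main test, and RPKM values (reads per kilobase and per 1e+06 reads), used in 1 alternative as log2(RPKM + 1). The 5 HTSeq summary entries were dropped. Of the value columns, 0 were mapped to no sample. There were no molecular identifiers, so reads are not independent molecules.

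edgeR 4.0.16 (R 4.3.3) was fitted to 23 S1 libraries in 6 groups with TMM factors and filterByExpr (minimum count 10). Quasi-likelihood p-values were adjusted by Benjamini-Hochberg over all genes tested, with a threshold of 0.05. The SE of a log2 fold change is its absolute value over the root of the F statistic. CPM uses TMM-scaled library sizes except in the check of segment markers. Statements on overlap between days are on this scale unless said otherwise. Glomeruli were tested in a fit of 46 segment libraries and whole kidney in 24 libraries of its own table, and levels are not compared between them. DESeq2 1.42.0, limma 3.58.1 (voom, and limma on RPKM), other scaling and filters, a replicate block and leaving out libraries were alternatives. Library measures were compared by exact permutation. The scripts were tested on simulated data. Among the 8 sham S1 libraries, no pair of a group was a copy. Of 545 listed symbols, 506 were measured. For a symbol with several IDs, the ID with the highest mean was used.

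The members and lists were chosen with earlier results of these data known. Named genes were the 5 with the smallest p of each sign among those with at least 5 CPM, all measured clock and clock-linked genes, a fixed set, and for the other lists described, up to 3 members of smallest p. Genes with LOC, AABR or similar symbols were left out of those with the smallest p. Others are said to be named after their values were seen or because they passed. Numbers 1 to 4 occur on both days. Deviations from the group means correlated by -0.0739, 0.403, 0.400 and 0.0774 for numbers 1 to 4, so the numbers were not taken to pair the libraries. Some listed genes are not reported here.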

Additional observations from a re-analysis of the deposited data

Results flagged for a closer look

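Over 222 groups of 4 libraries (87 genes named in the report and 24 library measures, each at 72 h and at 48 h), 16 had 1 library whose gap to the nearest other as a share of the group's range exceeded Dixon's 95% critical value, which chance alone gives in about 1 in 20 groups. Why these libraries stand apart was not tested.

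Library 1 of 72 h was high for Slc12a3 (88.0 CPM, others 2.30 to 5.92 CPM), for Myh11 (25.2 CPM, others 2.63 to 4.19 CPM) and for summed red blood cell markers (37.1 CPM, others 11.9 to 15.8 CPM), and low for Hlf (15.7 CPM, others 23.2 to 23.8 CPM). Library 2 of 72 h was high for Ppara (76.8 CPM, others 33.1 to 35.6 CPM). Library 3 of 72 h was low for Slc9a3 (53.7 CPM, others 84.5 to 86.5 CPM). Library 4 of 72 h was high for Cyp24a1 (40.5 CPM, others 6.62 to 9.68 CPM) and for Atf4 (120.3 CPM, others 64.0 to 72.3 CPM).

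Library 3 of 48 h had the lowest share of uniquely placed reads in genes (47.3%, others 62.1% to 63.1%) and the highest mean log2 CPM of immune cell markers (1.74, others 0.56 to 0.71). It was high for Acta2 (5.89 CPM, others 0.0623 to 0.614 CPM) and Myh11 (10.6 CPM, others 0.997 to 1.41 CPM), and low for G6pc (278 CPM, others 732 to 786 CPM) and Slc22a6 (239 CPM, others 339 to 358 CPM). Library 1 of 48 h was high for Htatsf1 (50.5 CPM, others 34.2 to 36.6 CPM). Library 4 of 48 h was low for Csad by a small amount (20.3 CPM, others 21.5 to 21.8 CPM).

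The 72 h minus 48 h change of Sgk1 differed between sham and nephrectomy S1 tubules by -4.45 on the log2 scale, by a test of the difference itself. This call was at the edge: it was kept in 7 of 16 fits that each left out 1 library. By limma on log2(RPKM + 1) it was lost (adjusted p = 0.791). It was kept by DESeq2 (adjusted p = 5.92e-09), by voom with quality weights (adjusted p = 2.36e-05) and in edgeR with the replicate block (adjusted p = 0.00821). With all 24 S1 libraries it was kept by little (edgeR, adjusted p = 0.0499).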

How the results depend on the processing

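The sham S1 comparison, with 0 genes called, gave 15 with its 8 libraries alone, 201 by DESeq2, 10 by voom with quality weights and 2 by limma on log2(RPKM + 1). It gave 0 with 24 S1 libraries, other scaling factors, no filter or no mitochondrial genes, and 0 to 60 with 1 library left out. The nephrectomy S1 count of 1108 was 0 with all 24 libraries, 4452 by DESeq2, 2660 with RLE factors, 404 without mitochondrial genes, 82 by voom, 1 by limma on RPKM and 0 to 4493 with 1 library left out. The difference between sham and nephrectomy, with 1 gene called, gave 488, 4, 5 and 0 by DESeq2, RLE factors, voom and limma on RPKM, and 0 to 5 with 1 library left out. The glomerular count of 0 was 177 by DESeq2, 6110 by voom, 505 by limma on RPKM and 0 to 26 with 1 library left out. S1 minus glomeruli gave 2 by DESeq2, 1 by limma on RPKM and 0 to 1 with 1 library left out. The whole kidney count of 4 was 31 by DESeq2, 76 by voom and 2 to 6 with 1 library left out. The cause of these moves was not tested.

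Of 1566 values of 87 named genes under the alternatives to the sham S1 test, 1485 kept direction and call, 60 (28 genes) passed and 21 (10 genes) changed sign. By voom the log2 fold change was 0.44 for Ciart, -0.21 for Pdk4, 1.08 for Upp2, -0.089 for Pck1 and -0.046 for Por, and by limma on RPKM -0.094 for Por. With 1 library left out it ranged from -1.03 to 0.26 for Ciart, -0.15 to 0.015 for Tef, -0.31 to 0.69 for Pdk4, -0.78 to 0.24 for Upp2, -0.030 to 0.28 for Ppargc1a, -0.0088 to 0.41 for Pck1, -0.090 to 0.040 for Por, -0.42 to 3.28 for Acta2, -0.097 to 2.82 for Myh11 and -1.45 to 1.93 for Slc12a3. The Sgk1 difference between sham and nephrectomy was -4.00 by limma on RPKM (adjusted p = 0.791) and -4.80 to -4.06 with 1 library left out (adjusted p = 7.83e-06 to 0.169).

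With the replicate block, which treats equal numbers as pairs, 2 genes were called in the sham S1 comparison, 306 in nephrectomy S1 and 32 in sham glomeruli, and the count stayed within 1.5 times its value in the other comparisons. The 2 genes of the sham S1 comparison were LOC100360087 and AABR07054405.1, both higher at 72 h. Both also passed without nephrectomy 72 h library 2 and with the 8 libraries alone. The 48 h libraries held 4.87 to 9.14 M counts outside mitochondrial genes, which limits what can be seen for genes of a few CPM.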
